A study of Mus musculus with 12 samples.

Results

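The genes described here are 10 members of the vascular growth factor system, the ligands Vegfa, Vegfb, Vegfc and Angpt1, the receptors Flt1, Kdr, Tek and Tie1, and the neuropilins Nrp1 and Nrp2. They were taken by symbol from a list, out of 25442 genes that have an Ensembl identifier in both count tables, and all 10 were found. They were selected on the counts of these libraries, with the lower level of Flt1 in the ACSA-2 libraries already known. The vector comparison in those libraries is therefore given for the members as a description, with no p value. The libraries came from the hippocampus of male C57Bl6/J mice that received, in the CA1 area on both sides, a serotype 2/9 adeno-associated vector with the astrocyte promoter GfaABC1D, the globin element Bglob and the element WPRE. This vector carried either the mouse gene of the adenosine A2A receptor (AAV-A2A) or GFP (AAV-GFP), so that the controls share the virus, the promoter and the operation. Mice were injected at 2 months and cells were sorted at 4 months, 2 months post-injection. Magnetic beads against ACSA-2, an antigen of the astrocyte surface, gave the astrocyte-enriched fraction, and beads against CD11b, a surface protein of microglia and other myeloid cells, gave a second fraction, taken from the cells that ACSA-2 beads had not held. Each fraction has 3 AAV-GFP and 3 AAV-A2A libraries, titled 303_GFP, 306_GFP, 307_GFP, 309_A2A, 310_A2A and 313_A2A for ACSA-2, and CD11b_2328_Control, CD11b_2329_Control, CD11b_2331_Control, CD11b_2343_A2AR, CD11b_2344_A2AR and CD11b_2347_A2AR for CD11b. Values are given below in this order.

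VEGF ligands are secreted dimers that act on tyrosine kinase receptors of endothelial cells. Kdr (VEGFR2) carries most of the signal for vessel growth and permeability, whereas Flt1 (VEGFR1) binds Vegfa and Vegfb tightly, signals weakly, and also exists as a soluble form that holds ligand away from Kdr. Neuropilins are co-receptors shared by VEGF ligands and class 3 semaphorins, and Angpt1, made largely by cells around vessels and by astrocytes, activates Tek (TIE2), with Tie1 as a partner receptor. In the adult brain astrocytes are a known source of Vegfa, and the receptors are found largely, though not only, on endothelial cells. In a sorted fraction a receptor's level can therefore also read how many such cells came along.

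The vectors and the sort were checked first. Adora2a, the gene carried by AAV-A2A, had 24.5, 22.9 and 25.1 CPM (count scaled to a common library size, with TMM factors within a fraction) in the ACSA-2 libraries of AAV-GFP mice and 756, 655 and 944 CPM in those of AAV-A2A mice. Among the CD11b libraries it had 3.96, 4.78 and 8.06 CPM with AAV-GFP and 17.8, 43.2 and 16.2 CPM with AAV-A2A. The total count on genes lay between 33937067 and 53206974 over the 12 libraries. All 10 astrocyte markers listed were higher in the ACSA-2 fraction and all 10 microglia markers higher in the CD11b fraction, with no overlap. Of the markers of each list named first, Aqp4, Slc1a3 and Gja1 had at least 398 CPM in each ACSA-2 library and at most 224 CPM in each CD11b library, and P2ry12, Tmem119 and Cx3cr1 at least 936 CPM in each CD11b library and at most 131 CPM in each ACSA-2 library. The sorts also held other cells. The 16 endothelial markers, among them Cldn5, Cdh5 and Pecam1, were above 0 counts in all 12 libraries. In 3 CD11b libraries, CD11b_2328_Control, CD11b_2329_Control and CD11b_2347_A2AR, the choroid plexus gene Ttr reached 72276, 59104 and 27402 CPM, against 5.03 to 77.2 CPM in the other 3. In these bulk samples fewer cells of a type and less RNA per cell cannot be told apart.

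Flt1 (ENSMUSG00000029648) lies on the minus strand of chromosome 5 from 147561604 to 147726011 (GRCm38), and Kdr (ENSMUSG00000062960) on the same strand from 75932827 to 75978458. Both receptor genes were lower with AAV-A2A in the ACSA-2 libraries, as were Tek and Tie1, whose upstream sequences are not shown. CRE is a motif through which cAMP, the messenger to which the A2A receptor is coupled, can act on genes. Whether it acts on any member in these cells was not tested. The letters are those of RefSeq (GRCm38.p6), 5′ to 3′ on the gene's strand. Capitals mark matches on either strand to TGACGTCA (CRE), TGACG (the core within it), ACGTG (the core of the hypoxia response element) and GGAA (the core bound by ETS factors). The Flt1 sequence is chr5:147726012-147726261 and the Kdr sequence chr5:75978459-75978705, both minus strand.
Flt1: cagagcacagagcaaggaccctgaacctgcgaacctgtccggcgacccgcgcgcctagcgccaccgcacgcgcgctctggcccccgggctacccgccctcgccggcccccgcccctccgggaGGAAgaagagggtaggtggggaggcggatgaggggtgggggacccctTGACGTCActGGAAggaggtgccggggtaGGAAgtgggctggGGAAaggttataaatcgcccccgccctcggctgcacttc
Kdr: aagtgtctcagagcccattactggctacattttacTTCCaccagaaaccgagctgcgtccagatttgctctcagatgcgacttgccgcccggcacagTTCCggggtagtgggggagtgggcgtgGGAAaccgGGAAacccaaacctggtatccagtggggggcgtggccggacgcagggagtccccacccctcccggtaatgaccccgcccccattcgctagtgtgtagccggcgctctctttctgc

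The full CRE was found upstream of 1 of the 9 members with an entry, Flt1, where the match begins 81 bases before the annotated start. Over all 32851 promoter entries, 1.55% held it in the 250 bases before the start. The shorter core TGACG was found for Flt1 and for the downstream one of both Vegfa starts, against 17.8% of all entries, and the hypoxia core for that Vegfa start alone, where the 2 matches overlap, against 16.6%. The ETS core was found for all 9, as it is in 93.4% of entries. Tie1 had 7 matches to it, Flt1 and Kdr 4 each. These matches describe letters only, and no binding was measured. Angpt1 had no entry.

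Among the ligands, Vegfb (chromosome 19 from 6982473 to 6987651) was the member with the highest level per kb of exon in the ACSA-2 libraries. Vegfa (chromosome 17 from 46016993 to 46032369) was close to constant in those with AAV-GFP but not in those with AAV-A2A. Vegfb had 139, 136 and 118 CPM with AAV-GFP and 150, 108 and 164 CPM with AAV-A2A. The A2A group lay around the GFP values, with a log2 FC (AAV-A2A against AAV-GFP) of 0.10 (SE 0.20). Vegfa, the main ligand of Kdr, had 49.4, 49.3 and 49.8 CPM with AAV-GFP and 51.3, 43.8 and 60.2 CPM with AAV-A2A, a log2 FC of 0.06 (SE 0.20). The 3 control libraries were almost equal and fell inside the range of the A2A libraries. Vegfc (chromosome 8 from 54077606 to 54187096), a ligand of lymphatic vessels, had 17.2, 13.4 and 9.45 CPM with AAV-GFP and 6.98, 15.8 and 7.53 CPM with AAV-A2A. Its groups overlapped, with a log2 FC of -0.40 (SE 0.41). Angpt1 (chromosome 15 from 42424723 to 42676977) had 19.1, 7.79 and 7.23 CPM with AAV-GFP and 15.1, 8.67 and 20.5 CPM with AAV-A2A, again overlapping, with a log2 FC of 0.37 (SE 0.46). It shares 14.2% of its exon bases with Gm17473 on the other strand, and its count is uncertain since the strand setting of the counting is not given in the sources used here.

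The 4 receptors had lower means with AAV-A2A in the ACSA-2 libraries, Flt1 by the most of the 4. Flt1 had 157, 195 and 190 CPM with AAV-GFP and 46.9, 77.4 and 46.9 CPM with AAV-A2A. The highest A2A library had less than 50% of the lowest control library, and the log2 FC was -1.66 (SE 0.24). Kdr had 12.8, 15.5 and 10.8 CPM with AAV-GFP and 9.03, 9.24 and 4.12 CPM with AAV-A2A. The groups did not overlap, although 10.8 and 9.24 CPM are close, and the log2 FC was -0.81 (SE 0.39). Tie1 (chromosome 4 from 118471191 to 118490061) had 12.4, 33.6 and 20.9 CPM with AAV-GFP and 8.20, 11.9 and 7.70 CPM with AAV-A2A, a log2 FC of -1.27 (SE 0.39). Its lowest control, 303_GFP, was nearly as low as the highest A2A library. Tek (chromosome 4 from 94739289 to 94874976) had 5.65, 21.1 and 20.5 CPM with AAV-GFP and 3.16, 10.2 and 6.55 CPM with AAV-A2A, a log2 FC of -1.25 (SE 0.56). Library 303_GFP fell among the A2A libraries, so that the groups of Tek overlapped.

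Both neuropilins overlapped between the vectors. Nrp1 (chromosome 8 from 128358604 to 128503363) had 22.7, 32.4 and 29.6 CPM with AAV-GFP and 18.7, 23.4 and 25.1 CPM with AAV-A2A in the ACSA-2 libraries, a log2 FC of -0.33 (SE 0.25). Nrp2 (chromosome 1 from 62703285 to 62818695) had 20.1, 13.5 and 7.12 CPM with AAV-GFP and 7.48, 8.29 and 5.98 CPM with AAV-A2A, a log2 FC of -0.90 (SE 0.41). Library 307_GFP was among the A2A libraries for Nrp2, and 303_GFP for Nrp1.

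Over the 10 members in the ACSA-2 libraries, 7 had a log2 FC below 0 and the median was -0.60, where the median of all 16451 genes tested was 0.02. Of them 1, Flt1, passed edgeR's quasi-likelihood test at the study's thresholds (log2 FC beyond 0.32 in either direction at an adjusted p under 0.05), beside 3.36% of all genes tested, or 3.19% in the lower direction. Groups without overlap, all lower, were those of 3 members, Flt1, Kdr and Tie1. Of all 16451 genes tested, 10.9% had no overlap in that direction and 3214 had none in either direction. Since the rule used this contrast, nothing is read from these counts. In a single fit of all 12 libraries the log2 FC of Flt1 was -1.69 (SE 0.36) and no member passed, while DESeq2 called Tie1 besides Flt1.

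**Figure D1:**
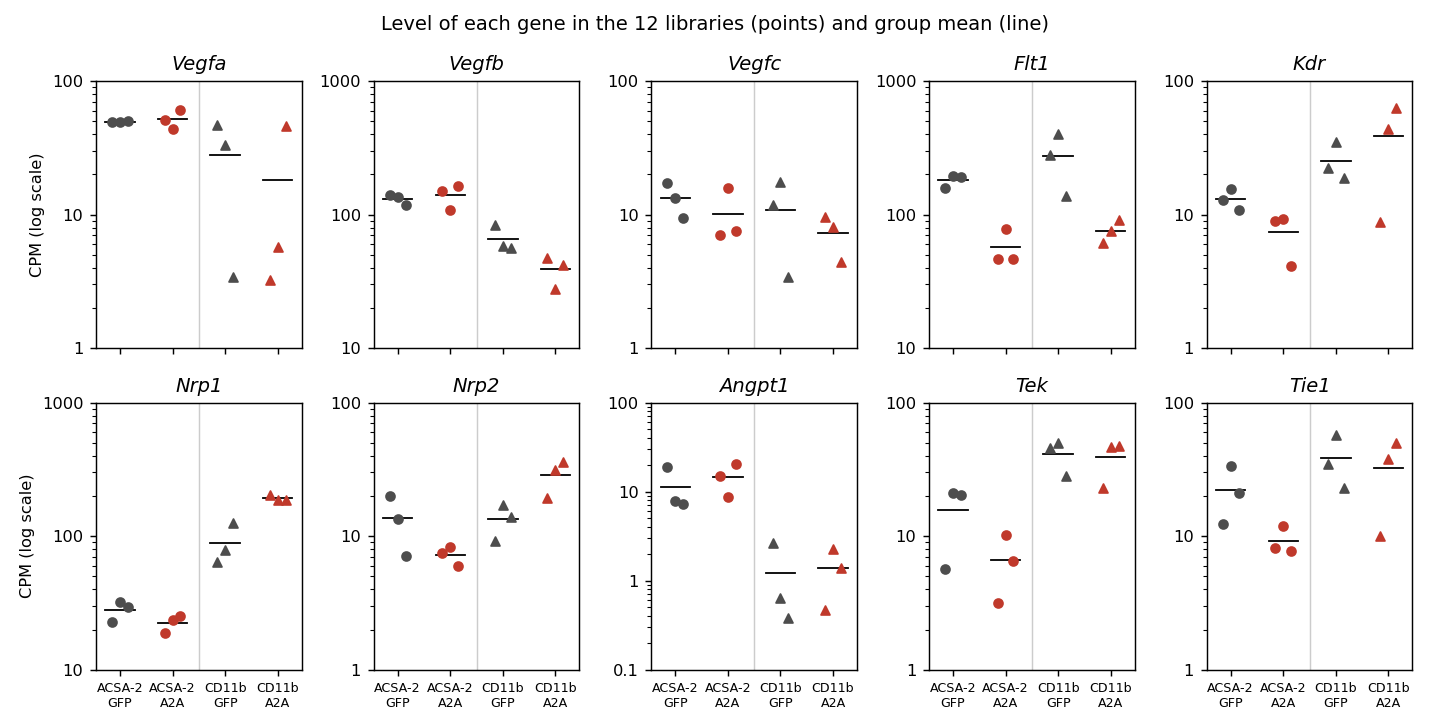
Level of each of the 10 genes in CPM on a log axis, in the 3 libraries of each fraction and vector (circles for ACSA-2, triangles for CD11b, grey for AAV-GFP, red for AAV-A2A), with a line at each group mean. Flt1 was at 157 to 195 CPM with AAV-GFP and 46.9 to 77.4 CPM with AAV-A2A in the ACSA-2 libraries, and at 138 to 400 against 61.1 to 91.0 CPM in the CD11b libraries.

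In the CD11b libraries, which the rule did not use, Flt1 was lower with AAV-A2A as well, and both neuropilins were higher, but no member passed the threshold with edgeR. Flt1 had 281, 400 and 138 CPM with AAV-GFP and 61.1, 75.2 and 91.0 CPM with AAV-A2A. The lowest control, CD11b_2331_Control, was still above the highest A2A library. The log2 FC was -1.85 (SE 0.46) at an edgeR adjusted p of 0.28. Nrp1 had 64.2, 78.5 and 125 CPM with AAV-GFP and 203, 188 and 187 CPM with AAV-A2A, which gave a log2 FC of 1.11 (SE 0.34) at an edgeR adjusted p of 0.28. The 3 A2A libraries were close to each other and all above the controls. Nrp2 had 9.21, 17.0 and 13.8 CPM with AAV-GFP and 19.3, 31.5 and 35.6 CPM with AAV-A2A, which gave a log2 FC of 1.11 (SE 0.39) at an edgeR adjusted p of 0.286, with the lowest A2A library just above the highest control. Vegfb had 84.1, 58.7 and 55.9 CPM with AAV-GFP and 47.0, 27.9 and 42.0 CPM with AAV-A2A, which gave a log2 FC of -0.77 (SE 0.32) at an edgeR adjusted p of 0.31, also without overlap.

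The remaining members overlapped between the groups of the CD11b libraries. Kdr had 22.2, 34.8 and 18.9 CPM with AAV-GFP and 8.80, 44.1 and 62.9 CPM with AAV-A2A, so that 1 A2A library was below all controls and the other two above them (log2 FC 0.61, SE 0.67, edgeR adjusted p = 0.678). Tie1 had the same order of libraries within each group, with 34.8, 57.6 and 22.9 CPM against 10.1, 37.9 and 49.7 CPM (log2 FC -0.24, SE 0.62). Library CD11b_2343_A2AR was the lowest of the A2A libraries for Kdr, Tie1, Tek and Flt1. Tek had 45.5, 50.0 and 28.2 CPM with AAV-GFP and 22.9, 46.4 and 47.5 CPM with AAV-A2A (log2 FC -0.08, SE 0.39). Vegfc was at 3.42 to 17.4 CPM with AAV-GFP and 4.43 to 9.56 CPM with AAV-A2A. Angpt1 was hardly detected, at 0.380 to 2.64 CPM over both groups.

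Of the 16949 genes tested in the CD11b libraries 0% passed both thresholds in edgeR's quasi-likelihood test, 16% had an unadjusted p under 0.05 and 23.4% did not overlap (10.9% lower and 12.6% higher). Of the 10 members 0 passed, 4 had an unadjusted p under 0.05, and 4 did not overlap, Flt1 and Vegfb lower and Nrp1 and Nrp2 higher. The study applied these thresholds with an earlier version of DESeq2 and reported differentially expressed microglial genes. DESeq2 called 798 genes, Flt1 among them (log2 FC -1.89, SE 0.49, adjusted p = 0.0124), whereas in the other settings run with edgeR and limma-voom its adjusted p lay between 0.0743 and 1. Without the 3 libraries rich in Ttr, which leaves 1 control, assumed to vary like the others, against 2 A2A libraries, the log2 FC was -1.02 for Flt1 (SE 0.64), 0.65 for Nrp1 (SE 0.66), 0.88 for Nrp2 (SE 0.81) and -0.57 for Vegfb (SE 0.70), each with an edgeR adjusted p of 1. Whether the vector acted differently on a member in the 2 fractions was not tested.

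**Figure D2:**
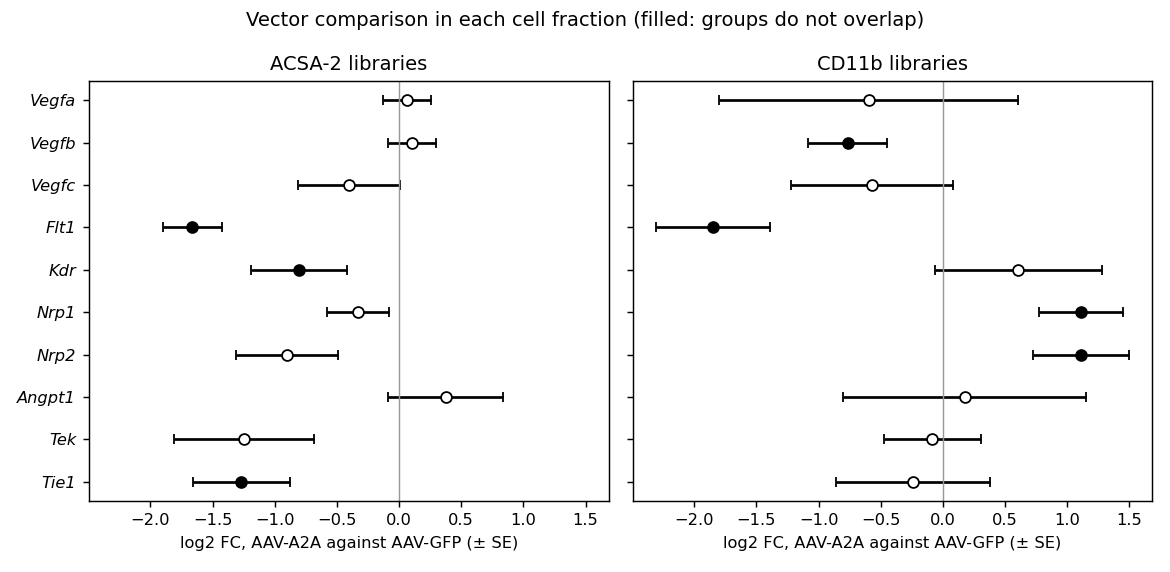
Log2 FC of AAV-A2A against AAV-GFP with its SE (bars) for each gene, in the ACSA-2 libraries (left) and the CD11b libraries (right), filled where the 3 libraries of one group lie wholly above or below those of the other. Flt1 was at -1.66 and -1.85, and Nrp1 and Nrp2 were at -0.33 and -0.90 in ACSA-2 and both at 1.11 in CD11b.

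Levels were compared between genes as CPM per kb of exon, scaled over all 12 libraries together. In the ACSA-2 libraries of AAV-GFP mice the order was Vegfb at 83.1 ± 7.14 (SD, n = 3), Flt1 at 13.6 ± 1.50, Vegfa at 11.8 ± 0.104 and Vegfc at 5.55 ± 1.62 CPM per kb, the first 3 without overlap with the next, although the lowest Flt1 and the highest Vegfa values were nearly equal. Below them Tie1, Tek, Nrp1, Angpt1, Kdr and Nrp2 ran from 4.60 ± 2.17 to 1.16 ± 0.559 CPM per kb, and each overlapped its neighbour. With AAV-A2A the order began with Vegfb (87.5 ± 17.6) and Vegfa (12.0 ± 1.77), and Flt1 came next at 4.22 ± 1.32 CPM per kb, where it overlapped Vegfc (4.12 ± 2.03). The ligand pair Vegfb and Vegfa kept a ratio per kb of 6.34 to 7.81 in all 6 ACSA-2 libraries.

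The CD11b libraries had another order. With AAV-GFP, Vegfb at 40.5 ± 8.16 CPM per kb (SD, n = 3) was followed by Flt1 at 19.7 ± 9.20, Nrp1 at 9.07 ± 3.60, Tek at 8.57 ± 2.17 and Tie1 at 7.66 ± 3.40 CPM per kb, of which only Vegfb did not overlap its neighbour. With AAV-A2A Nrp1 was next to Vegfb, at 19.8 ± 2.05 and 24.3 ± 6.23 CPM per kb, and their ranges overlapped. Angpt1 was last with both vectors, at 0.226 ± 0.224 and 0.266 ± 0.185 CPM per kb, below Nrp2 with no overlap.

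**Figure D3:**
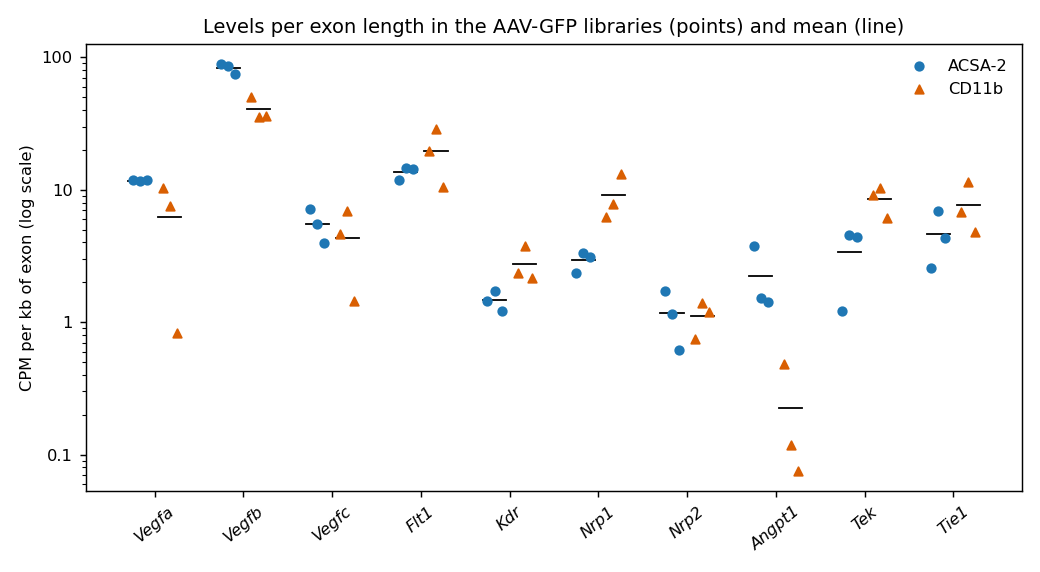
CPM per kb of exon on a log axis for each gene in the 3 AAV-GFP libraries of the ACSA-2 (circles) and CD11b (triangles) fractions, with a line at the mean. Vegfb was the highest in both, at a mean of 83.1 and 40.5, and Angpt1 the lowest in CD11b, at 0.226.

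Between the fractions, over both vectors together, 2 ligands were higher in ACSA-2, while 3 receptors and both neuropilins were higher in CD11b. In the AAV-GFP libraries alone only Vegfb, Nrp1 and Angpt1 passed. The means over both vectors include the ACSA-2 libraries whose values the rule used. The test took all 12 libraries in 1 fit and compared the mean of both ACSA-2 groups with that of both CD11b groups, and the fraction cannot be told apart from the table and any sequencing batch that goes with it. Of the 10 members 7 passed, 2 higher and 5 lower in the ACSA-2 fraction, beside 54.1% of all 18602 genes tested (24.6% higher and 29.4% lower). Groups did not overlap for 4 members and for 31.6% of all genes. Higher in the ACSA-2 fraction were Angpt1, with a log2 difference of 3.35 (SE 0.59, edgeR adjusted p = 6.09e-04), and Vegfb, with 1.44 (SE 0.19, edgeR adjusted p = 7.69e-05). Both were higher in 6 of 6 ACSA-2 libraries than in any CD11b library.

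Lower in the ACSA-2 fraction were Nrp1, with a log2 difference of -2.37 (SE 0.21, edgeR adjusted p = 6.48e-06), and Tek, with -1.95 (SE 0.39, edgeR adjusted p = 0.00137), again without overlap. Kdr (-1.62, SE 0.41), Tie1 (-1.26, SE 0.39) and Nrp2 (-0.96, SE 0.29) were also lower there, with edgeR adjusted p values of 0.00555, 0.0163 and 0.0163, but with overlapping libraries. In the AAV-GFP libraries alone Kdr, Tek and Tie1 did not pass and Nrp2 stood at 0.06 (SE 0.41), so that its call rested on the AAV-A2A libraries (-1.99, SE 0.43). Nrp2 and Tie1 also did not pass after a correction of every library for exon length and GC content, with log2 differences of -0.39 and -0.66. Without the 3 Ttr-rich libraries Tie1 did not pass (-0.78, SE 0.44).

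Flt1, Vegfa and Vegfc did not pass between the fractions with edgeR. Flt1 had a log2 difference of -0.47 (SE 0.25, edgeR adjusted p = 0.126), which became -0.63 and passed without CD11b_2331_Control (edgeR adjusted p = 0.0215), and was 0.04 with the length and GC trend removed. Vegfa had 1.25 (SE 0.64, edgeR adjusted p = 0.118), and limma-voom called it (log2 difference 1.81, SE 0.61, adjusted p = 0.024). Its CD11b levels fell into separate sets of libraries, with 46.5, 33.2 and 46.0 CPM in the 3 libraries rich in Ttr and 3.42, 3.21 and 5.71 CPM in the other 3. Without those 3 libraries the log2 difference of Vegfa was 3.62 (SE 0.32, edgeR adjusted p = 7.37e-06), and without CD11b_2347_A2AR alone it was 2.19 (edgeR adjusted p = 0.00426). The CD11b vector comparison of Vegfa moved with them too, with a log2 FC of -0.60 (SE 1.21) in all 6 libraries and 0.39 (SE 1.00) without those 3. The part of choroid plexus cells in these values was not tested.

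Microglial markers also differed between the CD11b libraries. Their summed level was 8517, 16835 and 58228 CPM with AAV-GFP and 63565, 51744 and 24492 CPM with AAV-A2A, and all 10 markers had a log2 FC above 0 (0.27 to 1.81) although 0 passed. None was at 0 counts. Nrp1 had its lowest levels in the 2 libraries with the lowest microglial sum. Library CD11b_2347_A2AR had 187 CPM of Nrp1 at a microglial sum of 24492 CPM, and CD11b_2331_Control had 125 CPM at a sum of 58228 CPM. Border macrophage markers (Mrc1, Pf4, Cd163 and 4 others) summed to 58.6 to 237 CPM with AAV-GFP and 166 to 279 CPM with AAV-A2A. The highest sum, 279 CPM, was that of CD11b_2347_A2AR. The part of either cell type in the neuropilin values was not tested.

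**Figure D4:**
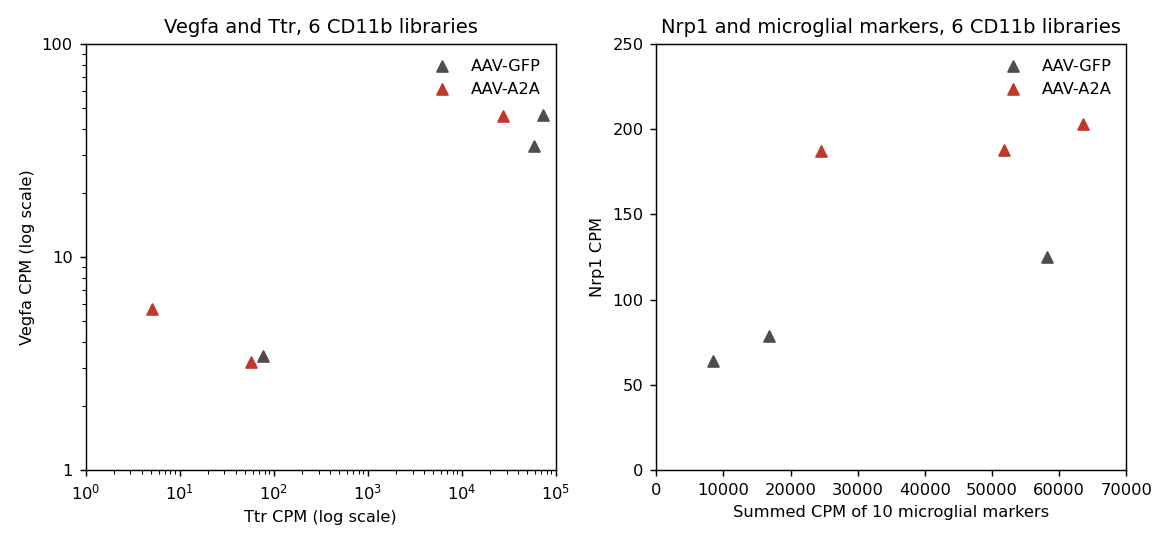
The 6 CD11b libraries, with Vegfa against Ttr in CPM on log axes (left) and Nrp1 in CPM against the summed CPM of 10 microglial markers on linear axes (right), AAV-GFP in grey and AAV-A2A in red. Vegfa was at 33.2 to 46.5 CPM in the 3 libraries with over 10000 CPM of Ttr and at 3.21 to 5.71 CPM in the others, and Nrp1 was at 187 to 203 CPM in the A2A libraries and 64.2 to 125 CPM in the controls.

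Since the receptors are largely endothelial genes, their levels were set beside other endothelial markers. In the ACSA-2 libraries 0 of the 16 markers passed the thresholds with edgeR. Groups did not overlap for 3 of them, all lower, beside 10.9% of all genes in that direction. The median log2 FC of the 16 was 0.03, and their summed level was 1060 to 1105 CPM with AAV-GFP and 842 to 1574 CPM with AAV-A2A. Cldn5, the tight junction claudin of brain endothelium, was at 154 to 183 CPM with AAV-GFP and 134 to 247 CPM with AAV-A2A. Cdh5 was at 1.87 to 20.3 and 1.31 to 3.73 CPM, and Pecam1 at 9.24 to 14.0 and 7.28 to 8.89 CPM. The markers were thus not equal among themselves, with Pecam1 among the 3 lower without overlap and Cldn5 spanning the controls. Mural cell markers (Pdgfrb, Rgs5, Kcnj8 and 6 others) summed to 4799 to 4918 CPM with AAV-GFP and 3612 to 5082 CPM with AAV-A2A. Of the 9, 8 had a log2 FC below 0, with a median of -0.49, and 2 were lower without overlap, beside 10.9% of all genes. Notch3 alone passed, lower, beside 3.19% of all genes in that direction. Markers of the oligodendrocyte lineage (Mbp, Mog and 5 others) summed to 212 to 339 CPM with AAV-GFP and 88.0 to 130 CPM with AAV-A2A in the ACSA-2 libraries, without overlap. Most of this sum was Cspg4 (NG2), a proteoglycan of oligodendrocyte precursors and pericytes, which had 186, 288 and 290 CPM against 70.4, 53.0 and 45.7 CPM and passed (log2 FC -2.17, SE 0.24) at an edgeR adjusted p of 0.00226. Without it the other 6 summed to 23.6 to 48.6 CPM with AAV-GFP and 42.3 to 59.7 CPM with AAV-A2A, and Mog was at 0 counts in 4 of the 6 libraries. Their part in the receptor values was not tested.

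Relative to the mean log2 CPM of the 16 endothelial markers, Flt1 was at 2.33, 2.71 and 2.67 in the ACSA-2 libraries of AAV-GFP mice and at 1.21, 1.32 and 1.07 in those of AAV-A2A mice, a difference of -1.37 on the log2 scale. Against Cldn5, Cdh5 and Pecam1 alone the difference was -0.81. For the CD11b libraries the median log2 FC of the 16 markers was -1.15 and 0 passed. Without overlap 8 were lower and 1 higher, beside 10.9% and 12.6% of all genes in these directions. The markers summed to 1023 to 2750 CPM with AAV-GFP and 749 to 1023 CPM with AAV-A2A. Relative to the mean of these markers Flt1 was at 2.26, 2.09 and 1.95 with AAV-GFP and lower, at 1.18, 1.06 and 1.19, with AAV-A2A. This difference of -0.96 on the log2 scale had p = 0.1 in the exact two-sided permutation test, the smallest p that 3 against 3 libraries allow. Leaving out any 1 library gave values from -1.03 to -0.88.

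On this scale the other receptors had differences of -0.55 (Kdr), -0.84 (Tek) and -0.85 (Tie1) in the ACSA-2 libraries, all overlapping between the groups. The CD11b differences were above 0, at 1.03 for Kdr, 0.66 for Tek and 0.35 for Tie1, of which Tek did not overlap. In the exact two-sided permutation test of 3 against 3 libraries, p was 0.4 for Kdr, 0.1 for Tek and 0.5 for Tie1, so that Tek, like Flt1 but in the opposite direction, had the smallest p this design allows, which is above the threshold. The ratio of Flt1 to Kdr per kb was 8.23, 8.43 and 11.7 with AAV-GFP and 3.48, 5.61 and 7.62 with AAV-A2A in the ACSA-2 libraries, and 8.46, 7.68 and 4.88 against 4.65, 1.14 and 0.968 in the CD11b libraries. Neither pair of groups overlapped, although 4.88 and 4.65 are nearly equal. The part of endothelial cell number in the receptor levels was not tested.

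**Figure D5:**
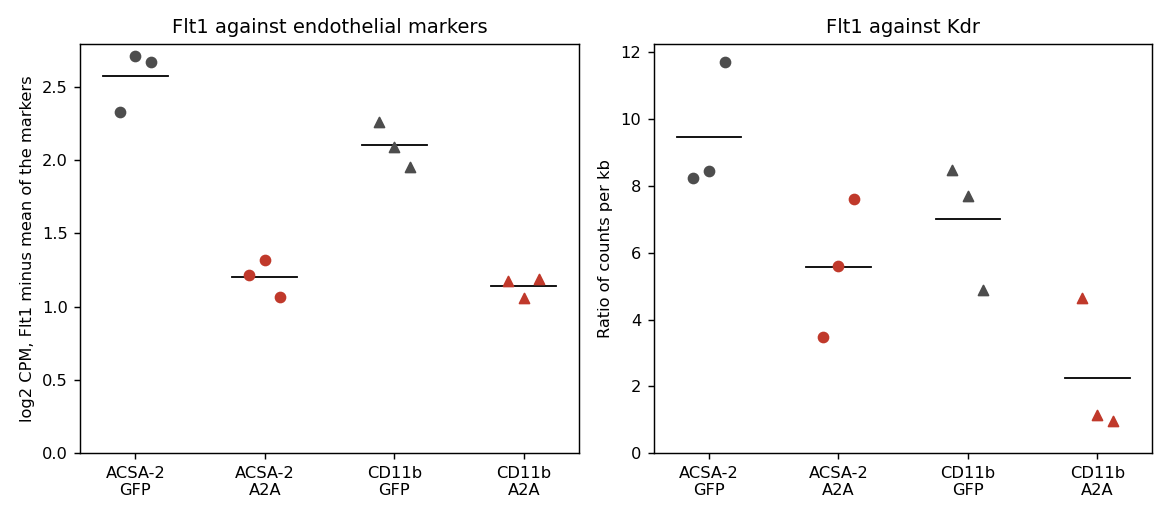
Flt1 in each library against other endothelial genes, as log2 CPM of Flt1 minus the mean log2 CPM of 16 endothelial markers (left) and as the ratio of Flt1 to Kdr counts per kb (right), with a line at each group mean. On the left the A2A libraries were at 1.06 to 1.32 and the controls at 1.95 to 2.71.

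Of the other ligands and receptors of the pathway, Pgf, Vegfd, Flt4, Angpt2, Angpt4 and Ptprb, 5 were tested in the ACSA-2 libraries and 6 in the CD11b libraries, and 0 passed in either with edgeR. Their median log2 FC was -0.46 and -0.63. Flt4 (VEGFR3), the receptor of Vegfc, had the log2 FC farthest from 0 in the ACSA-2 libraries, at -3.92 (SE 1.06), farther than that of Flt1. It had 4.62, 26.9 and 5.63 CPM with AAV-GFP and 0.0554, 0.638 and 1.73 CPM with AAV-A2A, without overlap, where 306_GFP alone was high among the controls. Its CD11b levels overlapped, at 6.34 ± 4.52 and 6.40 ± 2.81 CPM (SD, n = 3). Pgf, the placental growth factor that binds Flt1, was the highest of them per kb in the ACSA-2 fraction (4.24 ± 1.96 CPM per kb, SD, n = 6), at 8.53 ± 2.90 CPM with AAV-GFP and 16.0 ± 5.63 CPM with AAV-A2A (log2 FC 0.90, SE 0.38, overlapping). Its CD11b levels were 5.78 ± 1.47 and 2.08 ± 1.37 CPM (log2 FC -1.48, SE 0.65, edgeR adjusted p = 0.326), lower without overlap. Ptprb, the phosphatase that acts on Tek, was the highest in the CD11b fraction, at 2.54 ± 1.39 CPM per kb, with a log2 FC of 0.61 there (SE 0.61).

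Among 12 semaphorins and plexins that work with neuropilins, 11 were tested in the ACSA-2 libraries, where 9 had a log2 FC below 0, as had 7963 of all 16451 genes tested, and 1 passed, lower, beside 3.19% of all genes. Plxna4, a plexin that signals for neuropilin-bound semaphorins, went from 48.1 ± 15.3 to 11.5 ± 4.54 CPM (SD, n = 3), a log2 FC of -2.07 (SE 0.35). Plxna1, the highest of the list per kb in that fraction, was at 276 ± 113 and 80.9 ± 38.7 CPM (log2 FC -1.77, SE 0.43), without overlap and without a call. Of the 10 tested in CD11b libraries 0 passed with edgeR. The log2 FC there was -1.11 for Plxna1 (SE 0.37) and 0.81 for Plxna4 (SE 0.55), at edgeR adjusted p values of 0.281 and 0.487. Sema3b, the highest per kb in that fraction, had 39.7, 25.8 and 48.6 CPM per kb in the 3 libraries rich in Ttr and 0.470, 0.173 and 0 CPM per kb in the other 3, so that its rank rests on the former.

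The 10 regulators through which oxygen sets Vegfa transcription, the HIF subunits and the enzymes that mark or bind them, were all tested, and 0 passed in either fraction with edgeR. In the ACSA-2 libraries 9 of 10 had a log2 FC below 0, with a median of -0.46, where 7963 of all 16451 genes tested were below 0, and 4 did not overlap, all lower, beside 10.9% of all genes in that direction. The 4 without overlap were Hif3a (log2 FC -1.70, SE 0.52), Egln1 (-1.06, SE 0.31), Epas1 (-0.88, SE 0.21) and Hif1an (-0.76, SE 0.37). In the CD11b libraries the median was 0.50 and 3 did not overlap, all higher, beside 12.6% of all genes in that direction. The 3 were Arnt (log2 FC 1.87, SE 0.45), Hif1an (1.86, SE 0.44) and Hif1a (0.98, SE 0.28). Vhl, the highest per kb in the ACSA-2 fraction, had 136 ± 11.5 and 121 ± 28.8 CPM there (log2 FC -0.17, SE 0.20), and Egln2, the highest in the CD11b fraction, had 93.6 ± 13.5 and 94.8 ± 1.49 CPM (log2 FC 0.02, SE 0.25).

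The genes whose pattern was most like that of Flt1 were Jcad, Fuz, Ackr3, Kdelr3 and Mrtfb, in this order, among 9584 genes with a mean of at least 5 CPM in both fractions. Likeness was the root mean square difference from Flt1 over the 12 libraries in log2 CPM centred within each fraction, which was 0.28 for Jcad and 0.38 to 0.44 for the other four, where the spread of Flt1 itself was 0.94. The points share their libraries and depth, so this is a description. Jcad, which codes for a protein of endothelial junctions, had 636 and 187 CPM (AAV-GFP and AAV-A2A means) in the ACSA-2 libraries and 572 and 133 CPM in the CD11b libraries. Fuz, a planar cell polarity effector needed for cilia, had 199 and 76.8 CPM in the ACSA-2 and 68.3 and 31 CPM in the CD11b libraries.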

How the data were processed

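Gene counts of 12 RNA sequencing libraries were analysed, 3 per vector in each of the 2 fractions, grouped by the sample titles. Per the labels and the study's methods, the authors amplified full-length cDNA from low-input RNA, sequenced single-end reads, trimmed them with cutadapt 1.10, aligned them to mm10 with STAR 2.5.3 and counted uniquely aligned, unambiguous reads with HTSeq 0.6.1p1. They deposited raw counts per Ensembl gene, without normalization and without molecular identifiers, so amplified copies are included. The strand setting is not given in the sources used here. Another 25 unnamed empty columns of the CD11b table were not used.

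Genes were named and given exon lengths from GENCODE annotation of GRCm38 (27813 of 27866 and 30289 of 30359 identifiers matched). Counts were tested with edgeR 4.0.16 (TMM, filterByExpr, quasi-likelihood, robust) in R 4.3.3, with Benjamini-Hochberg adjustment over all genes tested, within each fraction and between the fractions. A call required a log2 FC beyond 0.32 in either direction and an adjusted p under 0.05. The authors used these thresholds with DESeq2, not edgeR. Log2 CPM used a prior count of 2. Alternatives were DESeq2 1.42.0, limma-voom (limma 3.58.1), RLE factors, looser and stricter count filters, a fit of all 12 libraries and each library left out. Removal of length and GC trends and of 3 libraries with Ttr over 10000 CPM was chosen after seeing the data. The tests were tried on simulated data. No 2 replicates agreed within sampling noise. Labels do not say that replicates of a group are separate mice, so p values measure the spread between libraries. Figures were drawn with matplotlib in Python.

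Members and gene lists were chosen with earlier results of these data known. The genes named are the members, Adora2a, genes of the pathway lists that passed in a vector comparison or had the highest level per kb in a fraction, the first 3 genes of each marker list, and the 5 genes nearest to Flt1. One gene that meets this rule is not reported here and was left out of its list. Notch3, Cspg4, Flt4, Gm17473, Hif1an, Hif3a, Egln1, Epas1, Arnt and Hif1a were named after their values were seen. Over the marker lists, neurons (first Snap25, Syt1, Rbfox3) had a median log2 FC of 0.12 in ACSA-2 and -3.00 in CD11b libraries, the choroid plexus (Ttr, Folr1, Kl) 0.29 and -1.72, astrocytes 0.02 and -0.11, microglia -0.09 and 0.56, border macrophages 0.22 and 0.65, mural cells -0.49 and 0.34, and the oligodendrocyte lineage 0.32 and -0.03.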

Additional observations from a re-analysis of the deposited data

Results flagged for a closer look

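Among the members and the pathway genes, 1 had groups that did not overlap in either fraction and lay in opposite directions. Groups did not overlap for 3214 of all 16451 genes tested in the ACSA-2 libraries and for 23.4% in the CD11b libraries. How many of all genes meet both conditions was not counted. Hif1an, the asparagine hydroxylase that limits HIF activity, had 14.0 ± 5.99 CPM with AAV-GFP and 8.26 ± 1.38 CPM with AAV-A2A in the ACSA-2 libraries (SD, n = 3), a log2 FC of -0.76 (SE 0.37). There the groups nearly met, with 306_GFP at 9.92 and 313_A2A at 9.67 CPM, while 307_GFP was highest at 20.8 CPM. Its CD11b levels were 14.5 ± 2.85 and 52.8 ± 24.6 CPM, which gave a log2 FC of 1.86 (SE 0.44) at an edgeR adjusted p of 0.28. It passed the threshold in neither fraction, and the difference between the fractions was not tested.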

How the results depend on the processing

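No paired analysis was possible because the groups share no replicate numbers and the labels do not tie ACSA-2 to CD11b libraries. In the ACSA-2 libraries edgeR called 553 genes (29 higher, 524 lower) with 1 member, DESeq2 1071 (173 higher, 898 lower) with 2 members, and the fit of all 12 libraries 156 with 0 members. Leaving out 1 library gave 272 to 448 genes and 1 member in each fit. Since the rule used the ACSA-2 vector comparison, nothing is read from the member calls in it. In the CD11b libraries 0 genes were called, 2704 had an unadjusted p under 0.05, and DESeq2 called 798 with 1 member. There were 3 calls, none a member, without the 3 Ttr-rich libraries and 0 with any 1 library left out. Between the fractions 10055 genes and 7 members were called, 4968 and 3 in AAV-GFP libraries alone, and 9176 to 9864 and 7 to 8 with 1 library left out. With 1 library left out the log2 FC in the ACSA-2 libraries ran from -0.0629 to 0.17 for Vegfa and from -0.0264 to 0.26 for Vegfb, across 0 in both. Directions also turned in the CD11b libraries, where no member had passed with edgeR. Without the Ttr-rich libraries the log2 FC became 0.39 for Vegfa, 1.36 for Vegfc, 0.30 for Tek and 0.0697 for Tie1, and with the length and GC trend removed 0.0125 for Vegfc. With 1 library left out it ran from -2.62 to 0.00413 for Vegfa, -0.42 to 1.44 for Angpt1, -0.30 to 0.19 for Tek and -0.66 to 0.18 for Tie1. Between the fractions it turned to -0.12 for Vegfc and 0.0425 for Flt1 with that trend removed, and to 0.0624 for Nrp2 in AAV-GFP libraries alone. Apart from fits that can be read from their construction (fewer libraries), the cause was not tested. The difference of Flt1 relative to endothelial markers in the ACSA-2 libraries was -0.81 with the first 3 markers and -1.49 to -1.30 with 1 library left out. With 1 library left out, the log2 FC of Flt1 lay between -2.18 and -1.47 in the CD11b libraries. In the ACSA-2 libraries, on which it was chosen, it lay between -1.95 and -1.54. With 3 libraries a group, replicates differed by more than sampling noise over all genes. Depth and spread between libraries were not told apart for single genes, and Angpt1 had only 15 to 134 counts in the CD11b libraries.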
